A study of Rattus norvegicus with 12 samples.

Results

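The expression of 10 genes of iron handling and of ferroptosis was followed in the left ventricle (LV) of rats 1 day after surgery. The genes were Tfrc, Hmox1, Fth1, Ftl1, Slc40a1, Hamp, Slc11a1, Slc7a11, Gpx4 and Acsl4, picked by symbol, and each symbol matched 1 of the 34599 loci in the gene table. RNA-seq read counts came from 12 male SD rats in 3 groups of 4. Sham rats had their chest opened but no coronary ligation. MI rats had the left anterior descending artery tied off and received nothing further. The iCarP+/Light+ rats had the same ligation, then an injection of the green alga Chlorella into the infarcted LV, then a light-guiding polyester patch (iCarP) glued over the infarct, which was lit. Alga, patch, adhesive and light came together in this group, so that the parts of the treatment cannot be told apart. Tissue was taken from the infarct region, and which part of the Sham hearts was taken is not stated. Rats with an unlit patch were not analysed here.

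Cells take up iron through the transferrin receptor, keep it in ferritin shells and release it through ferroportin, whose removal from the membrane is driven by the peptide hormone hepcidin. Haem from damaged muscle and red blood cells is a further source, opened by haem oxygenase. Ferroptosis is a form of cell death in which iron-dependent oxidation of membrane phospholipids outruns their repair, and it has been studied in the ischaemic heart.

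Hepcidin (Hamp) and the transferrin receptor (Tfrc) have well-described control sequences, so the 250 bases before their start sites are shown, as RefSeq gives them on build GRCr8. Capitals mark 3 motifs: the STAT palindrome TTCNNNGAA, the BMP response element GGCGCC and the hypoxia response element core ACGTG. Both strands were searched, also for the antioxidant response element core TGACNNNGC and the E-box CACGTG, which contains ACGTG.
Hamp, chr1:95300272-95300521, minus strand: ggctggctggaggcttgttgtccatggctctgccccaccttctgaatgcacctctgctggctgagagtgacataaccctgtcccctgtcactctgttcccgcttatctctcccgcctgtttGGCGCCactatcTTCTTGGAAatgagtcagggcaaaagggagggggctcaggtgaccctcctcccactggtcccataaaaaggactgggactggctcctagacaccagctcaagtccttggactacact
Tfrc, chr11:81690319-81690568, minus strand: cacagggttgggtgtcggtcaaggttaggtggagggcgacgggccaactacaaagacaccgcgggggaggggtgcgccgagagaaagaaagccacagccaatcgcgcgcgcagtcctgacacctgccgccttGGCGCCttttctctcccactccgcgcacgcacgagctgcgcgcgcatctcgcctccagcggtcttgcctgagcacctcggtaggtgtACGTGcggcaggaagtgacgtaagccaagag
The Hamp stretch held TTCTTGGAA, beginning 117 bases before the start, and GGCGCC, beginning 129 bases before it. The Tfrc stretch held ACGTG 31 bases and GGCGCC 118 bases before the start. Of 33469 rat promoter stretches of this length, TTCNNNGAA was in 7.67%, GGCGCC in 8.69%, ACGTG in 16.6%, TGACNNNGC in 10.1% and CACGTG in 5.59%. Promoter entries were found for 6 of the 10 genes, and those of Slc40a1, Gpx4, Slc7a11 and Acsl4 held none of these letters. Hmox1, Fth1, Ftl1 and Slc11a1 had no entry. A match is a run of letters and not a measured binding site.

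Total counts per rat were 14064414 to 17136958. Levels are given as CPM, counts scaled to a library of a fixed nominal size, after TMM scaling, a method that sets libraries to a common centre. Changes are given as log2 fold changes from edgeR's quasi-likelihood test over all 15101 genes that passed the filter on low counts, with the standard error (SE) and a p-value adjusted by Benjamini-Hochberg, called below 0.05. Each of the 10 genes that was tested also had an exact permutation test (two-sided, on log2 CPM), whose smallest possible p with 4 rats against 4 is 0.0286. Mitochondrial genes took 22.8% to 28.9% of the counts in Sham rats, 8.52% to 11.5% in MI rats and 7.14% to 14.2% in iCarP+/Light+ rats. On total counts alone the median change of all genes shifted to 0.52 for MI against Sham, -0.25 for iCarP+/Light+ against MI and 0.33 for iCarP+/Light+ against Sham. The changes below are relative to TMM, where these medians were -0.06, 0.01 and 0.02. All 10 cardiomyocyte markers listed were counted in every group.

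Of the 10 genes, 7 passed the filter on low counts, and Fth1, Slc40a1 and Gpx4 did not. In MI against Sham rats, 6 of the 7 rose and Tfrc fell, where 63.8% of all genes tested were called, 30.2% higher and 33.6% lower. Their median change was 4.19. Slc7a11, at 1 to 4 counts per Sham rat, passed the filter only through the infarcted groups. Its rises over Sham, counted in this paragraph and in the medians, are thus not independent of the filter. With 10 counts required in every rat it dropped out, and 6 genes were called in MI against Sham rats. In iCarP+/Light+ against MI rats, 5 of the 7 rose and none fell, with a median of 1.00, where 13.6% of all genes were called, 11.6% higher and 2.01% lower. Tfrc and Hamp did not pass the test in that comparison. In iCarP+/Light+ against Sham rats, 6 rose and Tfrc fell, where 66.5% of all genes were called, 33.5% higher and 33% lower, and the median of the 7 was 5.07. The groups did not overlap for 59%, 16.4% and 63.5% of all genes in these 3 comparisons, in the same order. On total counts alone the higher share of all calls moved from 47.3% to 73.5%, from 85.2% to 30.7% and from 50.3% to 64.7%. The comparisons share rats, so that their counts are not independent. In these bulk samples fewer cells of a type and less RNA per cell cannot be told apart.

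**Figure D1:**
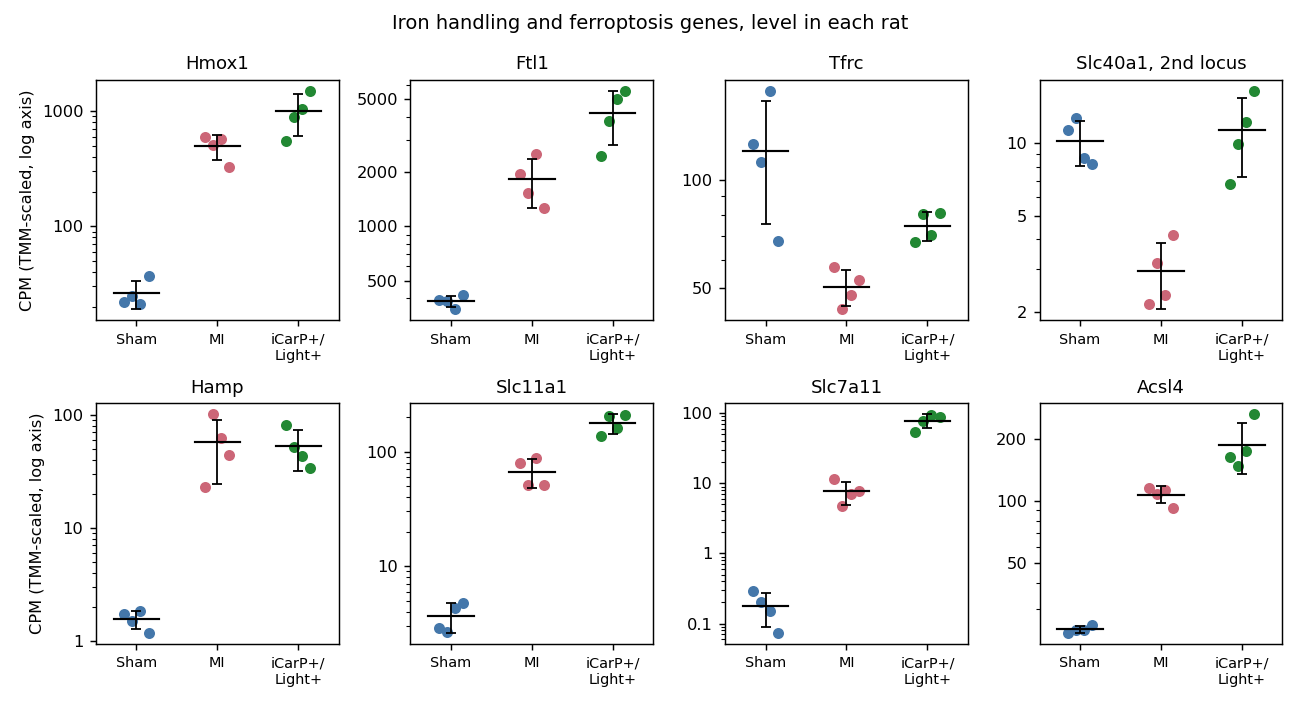
Level of each gene in each rat, in TMM-scaled CPM on a log axis, for Sham, MI and iCarP+/Light+ rats. Points are rats, and bars give the mean and SD of 4 rats. Hmox1, Ftl1, Slc11a1, Slc7a11 and Acsl4 rise from Sham to MI to iCarP+/Light+, Hamp is at like levels in both infarcted groups, and Tfrc and the second Slc40a1 locus are lowest in MI.

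Tfrc encodes the receptor that brings transferrin-bound iron into cells (ENSRNOG00000001766, chr11:71397383-71419223, minus strand, on the build of the table, named as rn6 in the submitters' processing notes). In Sham rats 1, 2, 3 and 5 it was at 126, 112, 177 and 67.5 CPM. In MI rats 1, 3, 4 and 5 it was at 57.1, 43.7, 47.9 and 52.7 CPM. In iCarP+/Light+ rats 1, 2, 4 and 5 it was at 67.2, 80.5, 70.05 and 80.7 CPM. Every MI rat lay below every rat of the other groups, and Sham rat 5 lay among the iCarP+/Light+ rats. Means were 120.5 ± 44.9 in Sham rats, 50.4 ± 5.81 in MI rats and 74.6 ± 7.01 CPM in iCarP+/Light+ rats (SD, n = 4 each). Against Sham, Tfrc fell by 1.26 (log2, SE 0.22, adjusted p = 0.000257) in MI rats. On total counts alone the change was -0.67 (adjusted p = 0.0127) and the MI and Sham rats overlapped. Against MI, the iCarP+/Light+ rats differed by 0.57 (SE 0.22, 95% interval 0.09 to 1.04), which did not pass the test (adjusted p = 0.117), while the groups did not overlap and the exact permutation p was 0.0286. On total counts alone these groups overlapped too. The iCarP+/Light+ level was lower than in Sham by the edgeR test (-0.69, SE 0.22, adjusted p = 0.0133), with overlapping groups and an exact permutation p of 0.114. That call was lost without Sham rat 3 (-0.45, adjusted p = 0.0521) and on total counts alone (-0.38, adjusted p = 0.13).

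Hmox1 encodes haem oxygenase-1, the inducible enzyme that opens haem and frees its iron (ENSRNOG00000014117, chr19:14508616-14515456, plus strand). Sham rats 1, 2, 3 and 5 had 22.2, 24.8, 21.3 and 36.7 CPM. MI rats 1, 3, 4 and 5 had 595, 507, 574 and 328 CPM. The iCarP+/Light+ rats 1, 2, 4 and 5 had 553, 894, 1052 and 1504 CPM. All infarcted rats were above all Sham rats, and iCarP+/Light+ rat 1 fell within the MI range while the other 3 were above it. Means were 26.2 ± 7.14, 501 ± 122 and 1001 ± 395 CPM (SD, n = 4 each). Hmox1 rose 19.1-fold in MI against Sham rats (log2 4.25, SE 0.32, adjusted p = 2.89e-07). It was a further 2.00-fold higher in the iCarP+/Light+ rats than in MI rats (log2 1.00, SE 0.28, 95% interval 0.38 to 1.61, adjusted p = 0.0331). The exact permutation p of that difference was 0.0857. The edgeR call was lost on total counts alone (0.73, adjusted p = 0.0607) and with the compared rats alone (0.96, adjusted p = 0.0732). It was also lost with a replicate block (0.89, adjusted p = 0.161). Leaving out MI rat 3 or 5, or iCarP+/Light+ rat 2, 4 or 5, ended the call, with the smallest difference, 0.66 (adjusted p = 0.155), without iCarP+/Light+ rat 5.

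Ferritin is built of a light and a heavy chain. Ftl1, the light chain that supports iron mineral formation in the shell (ENSRNOG00000020843, chr1:101448346-101449829, minus strand), was at 394, 386, 349 and 417 CPM in Sham rats 1, 2, 3 and 5. It was at 1942, 1515, 2515 and 1267 CPM in MI rats 1, 3, 4 and 5. It was at 2436, 3788, 5022 and 5561 CPM in iCarP+/Light+ rats 1, 2, 4 and 5. MI rat 4 was just above iCarP+/Light+ rat 1, and otherwise the groups stood in the order Sham, MI, iCarP+/Light+. Means were 386 ± 28.2, 1809.9 ± 547 and 4202 ± 1391 CPM (SD, n = 4 each). Ftl1 rose 4.68-fold in MI against Sham rats (log2 2.23, SE 0.26, adjusted p = 8.95e-06) and was 2.32-fold higher in the iCarP+/Light+ rats than in MI rats (log2 1.22, SE 0.26, adjusted p = 0.00595). The exact permutation p of the second difference was 0.0571. The table describes 3 further loci as ferritin light chains, which hold 1.97% of the 4 loci's summed counts, and reads can be split among them. Ftl1 also shares 91 bases with the small RNA locus AC128792.1 on its own strand.

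Fth1, the heavy chain that oxidises iron for storage (ENSRNOG00000022619, chr1:226030938-226033228, plus strand), was listed at 0 counts in all 12 rats. A count of 0 in a library allows up to 3 counts, or 0.144 to 0.228 CPM. The whole Fth1 locus lies inside Best1, a chloride channel gene on the opposite strand (chr1:226030875-226049929). Best1 itself was at 0.529 ± 0.167 CPM in Sham rats, 3.99 ± 2.06 in MI rats and 42.0 ± 10.1 in iCarP+/Light+ rats (SD, n = 4 each), and rose in MI against Sham (log2 2.90, SE 0.42, adjusted p = 5.46e-05) and in iCarP+/Light+ against MI rats (3.40, SE 0.34, adjusted p = 2.85e-05). The strand setting of the counting is not given in the sources used here, so Best1 reads and Fth1 reads cannot be told apart. How the overlap bears on the 0 was not tested, and no level of Fth1 can be read from these counts.

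Slc40a1 encodes ferroportin, the cellular iron exporter. The locus with this symbol (ENSRNOG00000049995, chr9:52820683-52830457, minus strand) had 2 counts in MI rat 4 and 0 in the other 11 rats. A second locus nearby (NEWGENE_620180, ENSRNOG00000003872, chr9:52894365-52912293, minus strand) carries the same protein description, solute carrier family 40 member 1, and was named after its values were seen. It held 11.3, 12.7, 8.65 and 8.18 CPM in Sham rats 1, 2, 3 and 5. It held 2.15, 3.18, 2.35 and 4.15 CPM in MI rats 1, 3, 4 and 5. It held 6.76, 9.91, 12.2 and 16.5 CPM in iCarP+/Light+ rats 1, 2, 4 and 5. Every MI rat was below every other rat, and the Sham and iCarP+/Light+ rats overlapped. Means were 10.2 ± 2.16, 2.96 ± 0.910 and 11.3 ± 4.11 CPM (SD, n = 4 each). The locus fell by 1.79 on the log2 scale in MI against Sham rats (SE 0.29, adjusted p = 0.000143) and was 3.83-fold higher in the iCarP+/Light+ rats than in MI rats (log2 1.94, SE 0.29, adjusted p = 0.000621). Between iCarP+/Light+ and Sham rats the difference was 0.15 with a 95% interval of -0.45 to 0.75 (edgeR adjusted p = 0.656).

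Hamp encodes hepcidin, made mainly by the liver and to a lesser extent by the heart and by immune cells (ENSRNOG00000021029, chr1:89368021-89369960, minus strand). Sham rats 1, 2, 3 and 5 were at 1.73, 1.502, 1.82 and 1.18 CPM, from 16 to 24 counts. MI rats 1, 3, 4 and 5 were at 22.8, 100.9, 62.4 and 44.5 CPM. The iCarP+/Light+ rats 1, 2, 4 and 5 were at 81.0, 52.2, 43.02 and 33.8 CPM. All infarcted rats lay far above the Sham rats, and the MI rats spanned the whole range of the iCarP+/Light+ rats. Hamp rose 36.8-fold in MI against Sham rats (log2 5.20, SE 0.47, adjusted p = 1.07e-06), from 1.56 ± 0.287 to 57.7 ± 33.1 CPM (SD, n = 4 each). In iCarP+/Light+ rats it averaged 52.5 ± 20.4 CPM, a difference from MI of -0.13 (SE 0.36, adjusted p = 0.86, exact permutation p = 0.943). The 95% interval of that difference, -0.92 to 0.65, leaves room for a fall or a rise. Its sign turned without MI rat 3 (0.28, adjusted p = 0.664). Markers of hepatocytes, the main source of hepcidin, summed to 14.2 to 18.8 CPM in Sham rats, 1.58 to 3.94 CPM in MI rats and 1.83 to 3.63 CPM in iCarP+/Light+ rats, over 6 genes, with Alb and Fgb at 0 counts in MI and Serpina1 and Fgb at 0 in Sham rats. In each group the highest gene held most of these counts, 830 of the 901 hepatocyte marker counts in Sham rats, 213 of 230 in MI rats and 125 of 155 in iCarP+/Light+ rats, and 1 of the 6 passed the filter.

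Slc11a1 encodes NRAMP1, a transporter that moves iron and manganese out of the phagosomes of macrophages and neutrophils (ENSRNOG00000014956, chr9:81655629-81666706, plus strand). It was at 2.89, 2.66, 4.33 and 4.79 CPM in Sham rats 1, 2, 3 and 5. It was at 79.1, 50.7, 87.4 and 51.0 CPM in MI rats 1, 3, 4 and 5. It was at 138, 203, 161 and 208 CPM in iCarP+/Light+ rats 1, 2, 4 and 5. The 3 groups did not overlap. The rise was 18.3-fold in MI against Sham rats (log2 4.19, SE 0.26, adjusted p = 8.62e-08) and 2.65-fold in iCarP+/Light+ against MI rats (log2 1.41, SE 0.22, adjusted p = 0.000836).

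Slc7a11 encodes xCT, which imports cystine for the synthesis of glutathione (ENSRNOG00000010210, chr2:139453774-139528162, minus strand). Sham rats 1, 2, 3 and 5 had 4, 3, 2 and 1 counts, at most 0.289 CPM. MI rats 1, 3, 4 and 5 had 11.4, 4.69, 6.99 and 7.66 CPM. The iCarP+/Light+ rats 1, 2, 4 and 5 had 54.4, 76.6, 95.7 and 87.4 CPM. The transcript was thus near the floor of detection in Sham rats, and the 3 groups did not overlap. Summed over 4 rats, 595 counts in MI stood against 10 in Sham, a scaled ratio of 43.2 (95% counting interval 23.3 to 90.5). The iCarP+/Light+ rats held 4792 counts, a scaled ratio to Sham of 430.3 (233.8 to 898). These exact intervals cover counting error only. The edgeR changes from Sham (5.35, SE 0.41, adjusted p = 3e-07, and 8.70, SE 0.39, adjusted p = 9.64e-09) depend on the prior count. Between groups with ample counts, Slc7a11 rose 10.2-fold from 7.70 ± 2.80 CPM in MI to 78.5 ± 17.9 CPM in iCarP+/Light+ rats (SD, n = 4 each), a log2 change of 3.35 (SE 0.26, adjusted p = 4.4e-06). Among the 7 genes tested this was the largest change between these groups.

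Gpx4, the peroxidase that reduces oxidised phospholipids in membranes (ENSRNOG00000013604, chr7:12516352-12519154, minus strand), held 34 counts over the 12 rats. Sham rats 1, 2, 3 and 5 had 7, 6, 3 and 5 counts. MI rats 1, 3, 4 and 5 had 0, 5, 0 and 2 counts. The iCarP+/Light+ rats 1, 2, 4 and 5 had 4, 0, 0 and 2 counts. Most of these values are near or under the floor of 3 counts, and no change of Gpx4 can be read from these counts. The locus shares 2303 bases with Sbno2 on the opposite strand (chr7:12471824-12518654), a gene induced in inflammation. Sbno2 was at 31.8 ± 5.11, 181 ± 13.7 and 385 ± 98.5 CPM in Sham, MI and iCarP+/Light+ rats (SD, n = 4 each), and rose in MI against Sham (log2 2.51, SE 0.19, adjusted p = 2.82e-07) and in iCarP+/Light+ against MI rats (1.09, SE 0.18, adjusted p = 0.0012). As with Fth1, reads of the overlapping genes cannot be told apart without a stated strand setting.

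Acsl4 encodes the acyl-CoA synthetase that feeds arachidonic acid into membrane phospholipids, the lipids oxidised in ferroptosis (ENSRNOG00000019180, chrX:113596239-113659944, minus strand). It was at 23.1, 23.8, 23.8 and 25.1 CPM in Sham rats 1, 2, 3 and 5. It was at 116, 109, 113 and 93.0 CPM in MI rats 1, 3, 4 and 5. It was at 163, 147, 175 and 262 CPM in iCarP+/Light+ rats 1, 2, 4 and 5. The 3 groups did not overlap, and the Sham rats lay close together. Acsl4 rose 4.49-fold in MI against Sham rats (log2 2.17, SE 0.17, adjusted p = 2.99e-07) and 1.74-fold in iCarP+/Light+ against MI rats (log2 0.80, SE 0.16, adjusted p = 0.00421). Without iCarP+/Light+ rat 5, the highest, the second change was 0.51 (adjusted p = 0.00957), and on total counts alone it was 0.52 (adjusted p = 0.0221).

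**Figure D2:**
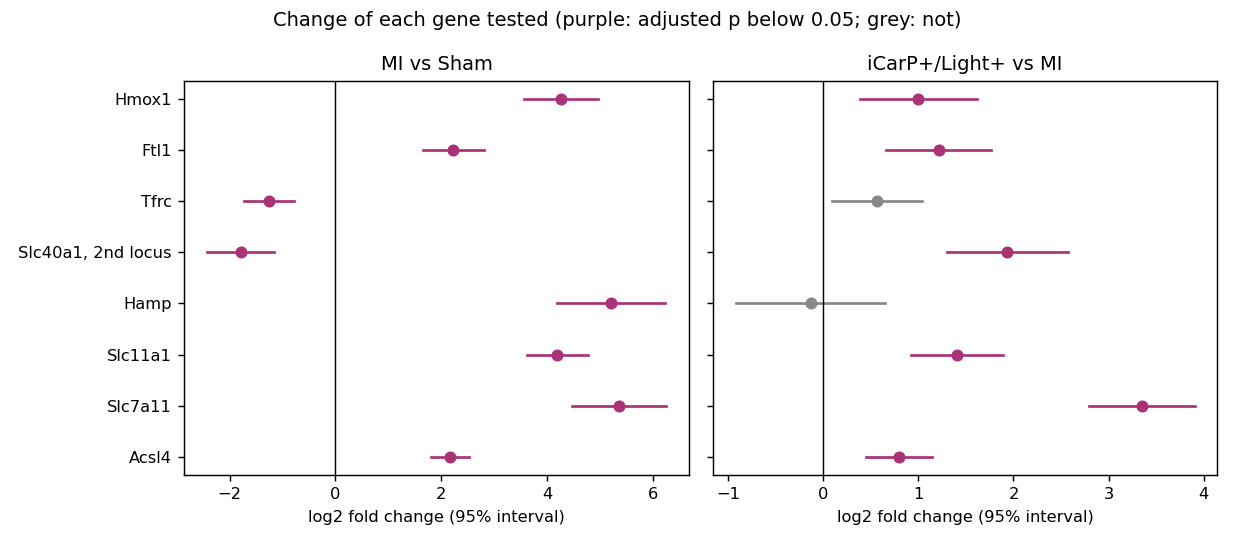
Log2 fold change of each gene tested, with its 95% interval, in MI against Sham rats (left) and in iCarP+/Light+ against MI rats (right). Purple points passed the test and grey points did not. Slc7a11 and Hamp have the largest rises on the left, with overlapping intervals. The Slc7a11 rise there rests on 1 to 4 counts per Sham rat and depends on the prior count. Slc7a11 has the largest rise on the right, and Tfrc and Hamp are the grey points there.

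Levels per kilobase of gene length were ordered among the 7 genes tested and the second Slc40a1 locus, since no level of Fth1 or Gpx4 could be read. Ftl1 had the highest mean in every group, at 700.1 ± 51.2 CPM per kb in Sham rats, 3279 ± 990.5 in MI rats and 7612 ± 2521 in iCarP+/Light+ rats (SD, n = 4 each). Tfrc stood next in Sham at 25.2 ± 9.39 CPM per kb, and its range of 1 SD overlapped that of Hmox1 at 16.8 ± 4.56. In Sham rats Acsl4 at 4.84 ± 0.168, Hamp at 4.33 ± 0.798 and the second Slc40a1 locus at 3.16 ± 0.668 CPM per kb followed, where Hamp overlapped both neighbours. Slc11a1 came lower at 1.24 ± 0.355 CPM per kb, ahead of Slc7a11. In both infarcted groups Hmox1 was next after Ftl1, at 319.8 ± 77.6 CPM per kb in MI and 639 ± 252 in iCarP+/Light+ rats, followed by Hamp at 160.1 ± 91.9 and 146 ± 56.8 CPM per kb. The ranges of Hmox1 and Hamp overlapped in MI and not in iCarP+/Light+ rats. Slc11a1 and Acsl4 were alike in MI at 22.7 ± 6.44 and 21.7 ± 2.05 CPM per kb. In iCarP+/Light+ rats they were at 60.1 ± 11.5 and 37.7 ± 10.5, though Acsl4 in rat 5 (53.0) exceeded Slc11a1 in rat 1 (46.7). Tfrc stood in sixth place, at 10.5 ± 1.21 CPM per kb in MI and 15.6 ± 1.46 in iCarP+/Light+ rats. In MI the second Slc40a1 locus at 0.914 ± 0.281 CPM per kb overlapped Slc7a11 at 0.865 ± 0.315, while in iCarP+/Light+ rats Slc7a11 was higher, at 8.83 ± 2.01 against 3.51 ± 1.27 CPM per kb.

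A list of 47 other iron genes held 42 that passed the filter. In MI against Sham rats 14 rose, 18 fell and 10 did not pass the test, with a median change of -0.25, beside 30.2% higher and 33.6% lower of all genes tested and a median of -0.06. On total counts alone the split was 21 higher and 11 lower, so the balance of directions in this list rests on the scaling. Among uptake genes, Slc39a8, a zinc and iron importer of the ZIP family, rose from 8.16 ± 1.51 to 69.5 ± 17.6 CPM (SD, n = 4 each; log2 3.09, SE 0.25, adjusted p = 4.44e-07), and its relative Slc39a14 rose by 0.92. The siderocalin receptor Slc22a17 changed by -1.61. Of 9 genes of iron export and its control 3 rose and 5 fell. The coreceptor Hjv, which promotes hepcidin expression, fell from 223 ± 24.3 to 11.6 ± 5.50 CPM (log2 -4.27, SE 0.41, adjusted p = 1.6e-06), and the ligand Bmp6 changed by -2.32. The related ligand Bmp2, named after its values were seen, rose by 2.14 (adjusted p = 2.74e-06). Erfe, erythroferrone, an inhibitor of hepcidin known from red cell precursors, was at 0.215 ± 0.150 CPM in Sham and 5.90 ± 1.10 CPM in MI rats, with 0 to 5 counts per Sham rat.

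In haem and haemoglobin handling 5 of 11 genes tested rose and 5 fell in MI against Sham rats. Of all genes tested, 30.2% were higher and 33.6% lower. Fech, which inserts iron into haem, fell from 112.7 ± 6.07 to 28.9 ± 4.93 CPM (SD, n = 4 each; log2 -1.97, SE 0.14, adjusted p = 1.57e-07). Alas1, the first enzyme of haem synthesis, changed by -1.53. The haemoglobin scavenger haptoglobin (Hp) was at 3 to 11 counts per Sham rat and 223 to 328 counts per MI rat (log2 4.54, SE 1.22, adjusted p = 0.0053), a call that was lost with limma-voom (adjusted p = 0.0564). Counts of Hp ranged from 37 to 2144 in iCarP+/Light+ rats. Of 8 mitochondrial iron genes 5 fell and 2 rose, again beside 33.6% lower and 30.2% higher of all genes tested. The outer membrane iron-sulphur protein Cisd1 (-1.63) and the iron-sulphur scaffold Iscu (-1.28) were among those that fell. The cysteine desulphurase Nfs1 (-1.74, adjusted p = 0.0471) rested on a borderline call that was lost in 17 of the 21 alternative fits, and that of the ferritin cargo receptor Ncoa4 (-0.27, adjusted p = 0.0381) was lost or turned in 16 of them, to 0.31 on total counts alone. Fbxl5, which senses iron and marks the iron regulatory protein IRP2 for degradation, rose from 56.0 ± 5.79 to 118 ± 23.1 CPM (log2 1.07, SE 0.24, adjusted p = 0.00158).

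In iCarP+/Light+ against MI rats 8 of the 42 other iron genes rose, 4 fell and 30 did not pass the test, with a median of 0.02, beside 11.6% higher and 2.01% lower of all genes and a median of 0.01. On total counts alone 7 were higher and 9 lower. Of 9 uptake genes tested 5 rose, 1 fell and 3 did not pass the test. Lcn2, a carrier of bacterial siderophores that is also on the neutrophil marker list, rose from 20.1 ± 6.12 to 703 ± 302 CPM (SD, n = 4 each; log2 5.13, SE 0.37, adjusted p = 3.48e-06). The metalloreductase Steap4 rose from 57.4 ± 16.1 to 198 ± 69.7 CPM (log2 1.79), and the iron importer Slc11a2, the close relative of Slc11a1, rose from 32.5 ± 3.53 to 61.5 ± 11.2 CPM (log2 0.92). Fbxl5 rose again, from 118 ± 23.1 to 563 ± 201 CPM (log2 2.26, SE 0.25, adjusted p = 5.58e-05). Alas1, low in MI at 107 ± 4.94 CPM, was at 313 ± 50.9 CPM in iCarP+/Light+ rats (log2 1.54, SE 0.14, adjusted p = 1.94e-05), against 309 ± 49.1 CPM in Sham rats. Both copper ferroxidases that partner ferroportin fell, Cp by 0.98 and Heph by 0.81 on the log2 scale. The mitochondrial iron importers moved apart, with Slc25a37 higher by 0.86 and Slc25a28 lower (-0.41, adjusted p = 0.0403, lost in 11 of the 21 alternative fits). The Slc25a37 call was lost in 2 of the 21, among them that without iCarP+/Light+ rat 5 (0.62, adjusted p = 0.0671). In iCarP+/Light+ against Sham rats 14 of the 42 rose and 19 fell, beside 33.5% higher and 33% lower of all genes, and on total counts alone 18 rose and 12 fell.

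A list of 32 other ferroptosis genes passed the filter whole. In MI against Sham rats 19 rose, 8 fell and 5 did not pass the test, with a median of 0.77, beside 30.2% higher and 33.6% lower of all genes and a median of -0.06. With scaling by total counts 22 rose and 3 fell, where 73.5% of the calls over all genes were higher. All 6 glutathione supply genes were called and 5 rose, among them Slc3a2, the partner chain of xCT, from 63.2 ± 5.28 to 213 ± 47.2 CPM (SD, n = 4 each; log2 1.76, SE 0.17, adjusted p = 1.6e-06). Gclc, which catalyses the first step of glutathione synthesis, rose by 1.67, and the glutathione-degrading Chac1, at only 2 to 8 counts per Sham rat, by 2.42. Of other defence genes, the heat shock protein Hspb1 rose by 1.99 and the thioredoxin reductase Txnrd1 by 1.11, while Coq2 of ubiquinone synthesis changed by -1.10. Ptgs2, the prostaglandin synthase commonly read as a marker in ferroptosis work, rose from 1.38 ± 0.522 to 13.1 ± 5.36 CPM (log2 3.25, SE 0.40, adjusted p = 1.18e-05). Cybb, the phagocyte NADPH oxidase, rose from 69.0 ± 24.3 to 389 ± 61.9 CPM and the fatty acid desaturase Scd by 2.31. Of the transcription factors Atf3 rose by 1.78 and Bach1 by 0.84. The Bach1 call was lost without MI rat 1 (0.70) or 5 (0.80) and without Sham rat 1 (0.73) or 2 (0.78), and with limma-voom (0.82, adjusted p = 0.0681).

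In iCarP+/Light+ against MI rats 13 of these 32 genes rose, 1 fell and 18 did not pass the test, with a median of 0.32, beside 11.6% higher and 2.01% lower of all genes and a median of 0.01. Scaled by total counts, 11 rose and 3 fell, where 30.7% of the calls over all genes were higher. Ptgs2 rose from 13.1 ± 5.36 to 506 ± 182 CPM (SD, n = 4 each; log2 5.27, SE 0.37, adjusted p = 3.13e-06). Nqo1, a quinone reductase, rose from 17.9 ± 4.98 to 95.7 ± 35.7 CPM (log2 2.42, SE 0.28, adjusted p = 7.81e-05). Gch1, which makes the radical-trapping cofactor tetrahydrobiopterin, rose by 1.75 and Txnrd1 by 1.32. The transcription factor Nfe2l2, an activator of Slc7a11, Nqo1 and Hmox1, rose from 112 ± 21.3 to 278 ± 58.0 CPM (log2 1.32, SE 0.17, adjusted p = 0.000216). Bach1, a repressor of Hmox1, rose too, from 19.7 ± 5.72 to 72.8 ± 27.7 CPM (log2 1.88, SE 0.30, adjusted p = 0.00079). Atf4, the stress-response activator of Slc7a11 and Chac1, rose by 0.90. Glutathione reductase (Gsr) rose by 0.66, Scd by 1.97 and the lipoxygenase Alox5 by 0.98. The Alox5 call was lost in 3 of the 21 alternative fits, among them that without iCarP+/Light+ rat 5 (0.58, adjusted p = 0.0576). In iCarP+/Light+ against Sham rats 21 of the 32 rose and 5 fell, beside 33.5% higher and 33% lower of all genes, and on total counts alone 22 rose and 3 fell.

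**Figure D3:**
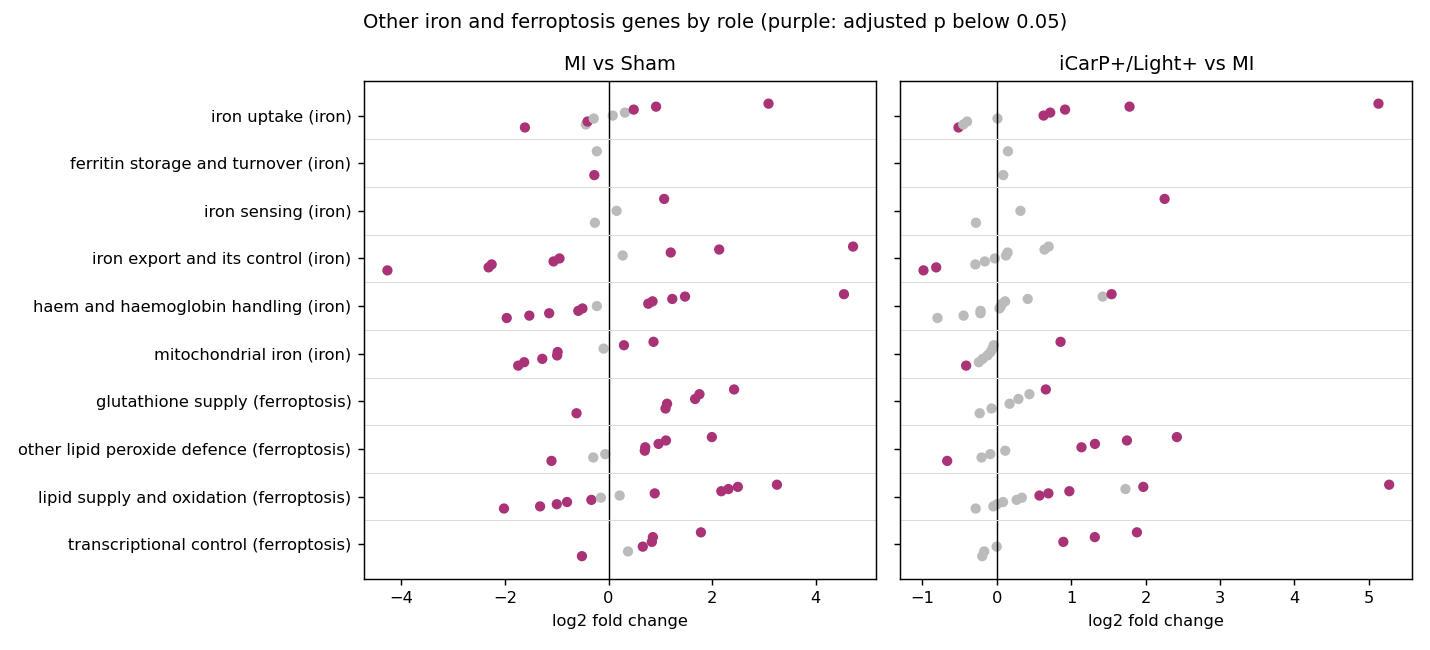
Log2 fold change of the other iron and ferroptosis genes tested, by role, in MI against Sham rats (left) and in iCarP+/Light+ against MI rats (right). Each point is a gene, and purple points passed the test. In the left panel called genes lie on both sides of 0, while in the right panel most points are grey and most purple points lie above 0.

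Markers of several cell types moved with these genes. Of all genes tested, 30.2% were called higher and 33.6% lower in MI against Sham rats. In iCarP+/Light+ against MI rats these shares were 11.6% and 2.01%. The 8 neutrophil markers summed to 20.02 to 32.4 CPM in Sham rats, 407 to 707 CPM in MI rats and 3083 to 8668 CPM in iCarP+/Light+ rats, with none at 0 counts in any group. Of the 7 neutrophil markers tested, 6 rose in MI against Sham and 7 in iCarP+/Light+ against MI rats, the same comparisons in which Hmox1, Ftl1, Slc11a1, Slc7a11 and Acsl4 rose. The 10 monocyte and macrophage markers summed to 447 to 666, 1101 to 1922 and 962 to 1420 CPM in the 3 groups. Of these 10, 6 rose in MI against Sham rats, while in iCarP+/Light+ against MI rats 1 rose and 4 fell. The 10 cardiomyocyte markers summed to 50886 to 55508 CPM in Sham rats, 3329 to 6401 CPM in MI rats and 2717 to 7449 CPM in iCarP+/Light+ rats. All 10 fell in MI against Sham rats, as did Tfrc and the second Slc40a1 locus, and none was called in iCarP+/Light+ against MI rats. The 7 red blood cell markers in the table summed to 7865 to 10570 CPM in Sham rats, 2504 to 6931 CPM in MI rats and 6184 to 17469 CPM in iCarP+/Light+ rats. Of these 7, 5 fell and none rose in MI against Sham rats, and 4 rose and none fell in iCarP+/Light+ against MI rats. The 5 endothelial markers summed to 1409 to 1588, 628 to 953 and 781 to 890.5 CPM, and the 6 fibroblast markers to 3836 to 4452, 1284 to 1675 and 914 to 1765 CPM, and 5 of each list fell in MI against Sham rats. The part of these cell types in the changes above was not tested.

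**Figure D4:**
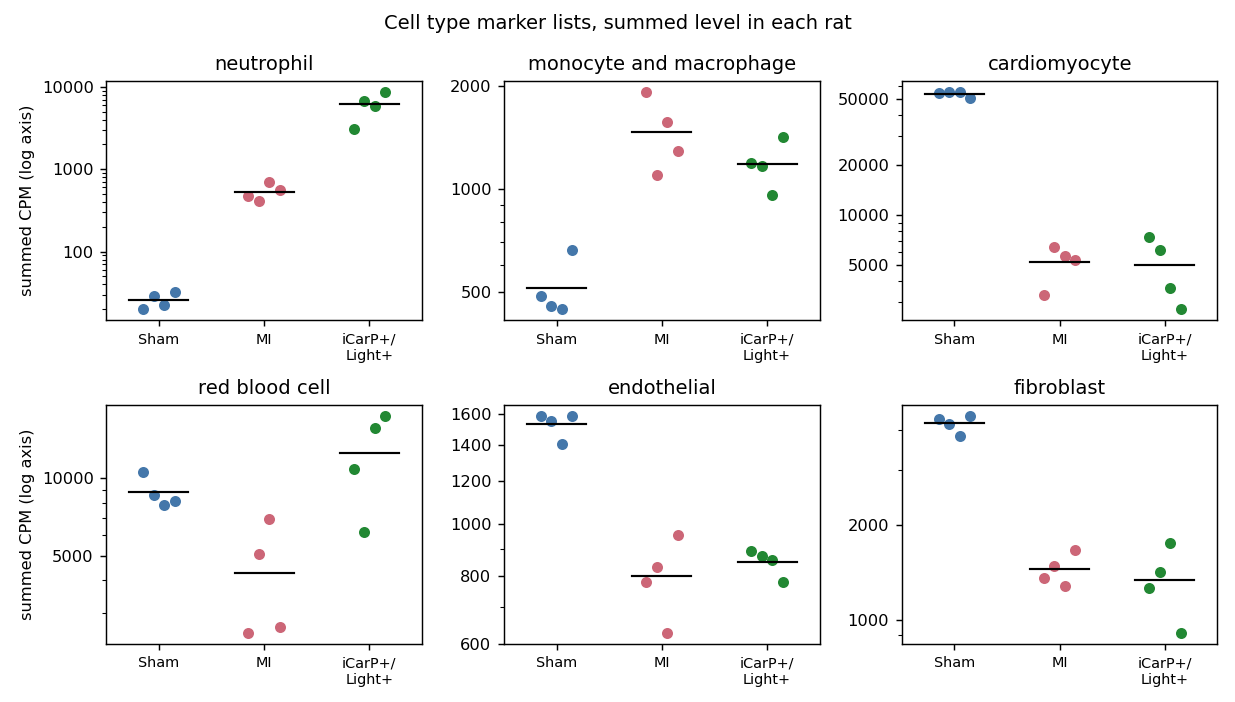
Summed level of the markers of 6 cell types in each rat, in TMM-scaled CPM on a log axis. Points are rats and lines are group means. The neutrophil sum is lowest in Sham rats, between 407 and 707 CPM in MI rats and at least 3083 CPM in iCarP+/Light+ rats, while the cardiomyocyte sum is high in Sham rats alone.

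For each gene tested, the protein-coding genes with the most similar profile over the 12 rats were taken by the root mean square difference of centred log2 CPM, as a description. Nearest to Hmox1 were Il1rl2 (0.25), Ncf4 (0.27) and Cd300a (0.28), of which Ncf4 is a subunit of the phagocyte oxidase. Nearest to Slc11a1 were Lilrb3a (0.28), Ncf4 (0.30) and Pstpip1 (0.31). Ftl1 was nearest to LOC100360087 (0.12), described as a ferritin light chain copy, which can share reads with it, then to the mitochondrial translocator protein Tspo (0.18) and Tpd52 (0.20). Acsl4 was nearest to the calcium channel gene Orai2 (0.16), Rgs19 (0.18) and Efhd2 (0.19). Slc7a11 and Hamp had no neighbour as close by this measure, which is not scaled by a gene's own spread (3.32 for Slc7a11, 2.38 for Hamp). For Slc7a11 the nearest were Fetub (0.38), Tarm1 (0.48) and Prok2 (0.53). For Hamp they were Cgm4 (0.47), Siglech (0.53) and Timp1 (0.56), an inhibitor of matrix metalloproteinases. Fetub, Tarm1, Prok2 and Cgm4 averaged 0 to 0.018 CPM in Sham rats, where the prior count shapes the log2 values. Tfrc was nearest to Gli4 (0.25), Ubxn2a (0.26) and Gde1 (0.26), against its own root mean square spread of only 0.57, whereas that of the other 6 genes was 1.25 to 3.32.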

How the data were processed

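The authors deposited raw read counts, 1 table for 12 rat LV libraries with a row per gene, without normalization. Its total RNA libraries were made with an NEBNext Ultra kit. The submitters' processing notes name HISAT2, featureCounts and rn6. Versions, annotation release and strand setting are not given in the sources used here. The analysis ran edgeR 4.0.16 under R 4.3.3: filterByExpr (minimum count 10, 3 groups), TMM, quasi-likelihood fit without an intercept over all 12 rats, and contrasts adjusted over 15101 genes at 0.05. The code was tested on simulated data. SE is the absolute log2 change over the square root of F. The prior count for log2 CPM was 2. Permutation tests enumerated all 70 arrangements. Replicates are rats, numbered by the labels. Pairs of rats within a group differed by 14.8 to 119.2 times counting noise, as chi-square per gene. The floor of 3 counts and counting intervals cover counting error only, since reads carried no molecular identifiers.

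The 10 genes and all lists were chosen with earlier results of these data known. Other genes were named by rule: up to 3 per role with the largest absolute change among those called with a mean of at least 1 CPM, and the 3 nearest profiles. One gene that the rule names is not reported here. Some listed symbols, Pcbp1 and Pecam1 among them, matched no locus. Where a symbol had several loci, that with most counts was used. Promoter stretches came from RefSeq (GRCr8) and were not converted to the table's build. Alternatives were DESeq2 size factors, total counts alone, DESeq2 1.42.0, limma-voom (limma 3.58.1), no filter beyond 1 count, at least 10 counts in every rat, no mitochondrial genes, the compared rats alone, a replicate block, and leaving out each rat. Adding the 3 copies to Ftl1 was chosen after seeing the data.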

Additional observations from a re-analysis of the deposited data

Results flagged for a closer look

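Among 159 sets of 4 rats looked at, 5 held a rat whose gap to the others passed Dixon's critical value for 4 values, where chance would give about 7.95. Haptoglobin (Hp) was at 0.217 CPM in Sham rat 1, against 0.663 to 0.751 CPM in the other Sham rats. Nfs1 was at 1.16 CPM in Sham rat 2, against 38.6 to 60.1 CPM. Gch1 was at 12.01 CPM in the same rat, against 20.05 to 20.4 CPM. Steap4 was at 33.6 CPM in MI rat 3, against 62.8 to 69.3 CPM. The summed cardiomyocyte markers were at 50886 CPM in Sham rat 5, against 54755 to 55508 CPM. None of the 7 genes tested had such a rat, on the log2 scale used.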

How the results depend on the processing

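Counts of called genes stayed within 1.5 times the reported count in every alternative run, for the 10 genes and both lists. Of the 7 genes tested, leaving out 1 rat gave 7, 4 to 6, and 6 to 7 called in MI against Sham, iCarP+/Light+ against MI and iCarP+/Light+ against Sham. The weakest call was Hmox1 in iCarP+/Light+ against MI rats, reported at 1.00. It was lost on total counts alone (0.73, adjusted p = 0.0607) and with the compared rats alone (0.96, adjusted p = 0.0732), and leaving out 1 rat gave 0.66 to 1.2 with 7 of 12 calls kept. The cause was not tested. Tfrc in the same comparison passed with the compared rats alone (0.53, adjusted p = 0.0214) and without Sham rat 5 (0.56, adjusted p = 0.0262). The second Slc40a1 locus in iCarP+/Light+ against Sham rats, never called, was -0.06 to 0.34 with 1 rat left out and turned negative without iCarP+/Light+ rat 5. Ftl1 kept its calls with its copies added. Requiring 10 counts in every rat removed Slc7a11.

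Same-numbered rats of different groups did not deviate together (correlations -0.15 to 0.0654), so the numbers do not pair them. With a replicate block, 7, 4 and 6 of the 7 genes were called, Hmox1 in iCarP+/Light+ against MI was 0.89 (adjusted p = 0.161), Tfrc in iCarP+/Light+ against Sham -0.55 (adjusted p = 0.101), and Hamp in iCarP+/Light+ against MI turned to 0.14 (adjusted p = 0.883), as it did without MI rat 3, within -0.42 to 0.28 over all rats left out.

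Ratios of Fth1 to Ftl1 and of Acsl4 to Gpx4 were planned and could not be computed, since Fth1 was at 0 in every rat and Gpx4 at 0 in 4. Slc7a11 in Sham rats rests on 10 counts in all.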
